A study of Homo sapiens with 2 samples.

Results

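The NF-kB genes described here were 10 genes set by their symbols and found as lines of the expression table that carry exactly that symbol: the subunit genes NFKB1, NFKB2, RELA and RELB, the inhibitor genes NFKBIA, NFKBIB and NFKBIE, and the feedback and target genes TNFAIP3, BIRC3 and ICAM1. All 10 were present, each on 1 line, among 12936 named genes. The study measured RNA from A549, a long-established line of human lung adenocarcinoma cells, as 1 library labelled MYOCD knockdown and 1 library labelled wild type. MYOCD encodes myocardin, a coactivator of serum response factor in muscle cells. For both libraries the treatment label gives doxycycline for 72 h, but the design text says that the wild type had no treatment. If only the knockdown cells received it, effects of the knockdown and of doxycycline cannot be told apart. The knockdown sample is titled MYOCD-/- although its genotype label says knockdown, and the labels do not name the method.

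NF-kB is a family of dimeric transcription factors. At rest the dimers are held in the cytoplasm by inhibitor proteins, the IkB family, and signals from tumour necrosis factor or interleukin receptors lead to phosphorylation and breakdown of the inhibitor, so that the dimer enters the nucleus. In the canonical branch the main dimer joins RELA with p50, the product of NFKB1. In the non-canonical branch RELB pairs with p52, which is cut from the product of NFKB2. Several of the genes that are switched on, among them NFKBIA and TNFAIP3, encode proteins that then turn the signal off.

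The sites that NF-kB dimers bind are known as kappaB sites, and the promoters of these genes were read for them. RefSeq promoter windows on GRCh38.p14, from 250 bases before to 50 after an annotated start, were at hand for 8 of the genes, in 13 windows. RELB and NFKBIE were not read. A 10-base kappaB consensus and the 9-base motif GGANNTTCC, which can overlap it, were searched on both strands. At least 1 match lay in 8 of the 13 windows and in 7 of the 8 genes, all but RELA. A match was found in 9.27% of all 35116 windows, 5.91% for the consensus and 4.56% for the 9-base motif, and in 13.5% of the 8229 compared genes that have a window. The consensus was found in 6 of the genes and the 9-base motif in 6, so neither was shared by all 7. The stretches below, 1 for each of the 7 genes, carry matches in capitals, 5′ to 3′ in the direction of the gene. The levels of these genes are described further on.
NFKB1, chr4:102501295-102501334, plus strand: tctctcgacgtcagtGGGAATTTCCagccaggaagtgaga
NFKB2, chr10:102394456-102394524, plus strand: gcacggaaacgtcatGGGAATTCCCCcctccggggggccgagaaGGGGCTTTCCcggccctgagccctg
NFKBIA, chr14:35404806-35404999, minus strand: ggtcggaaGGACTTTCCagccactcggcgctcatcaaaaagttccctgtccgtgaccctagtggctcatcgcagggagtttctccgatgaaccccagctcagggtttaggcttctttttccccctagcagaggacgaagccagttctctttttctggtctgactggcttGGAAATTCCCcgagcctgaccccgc
NFKBIB, chr19:38899926-38899982, plus strand: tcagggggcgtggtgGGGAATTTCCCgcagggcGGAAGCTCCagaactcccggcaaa
TNFAIP3, chr6:137867177-137867228, plus strand: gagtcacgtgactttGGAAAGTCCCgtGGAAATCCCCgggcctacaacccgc
BIRC3, chr11:102317270-102317373, plus strand: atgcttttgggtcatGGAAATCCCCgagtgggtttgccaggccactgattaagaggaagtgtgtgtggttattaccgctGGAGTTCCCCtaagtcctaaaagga
ICAM1, chr19:10270919-10270957, plus strand: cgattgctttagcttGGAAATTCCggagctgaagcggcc

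All matches lay upstream of the RefSeq start of their window, from which the distances are counted. The gene spans given further on are from GENCODE and can start elsewhere. A match can therefore lie inside a span, as in TNFAIP3 and ICAM1. In TNFAIP3 the 2 consensus matches began 67 and 55 bases ahead of the start, in NFKB1 the match began 49 bases before it, and in NFKBIA the consensus match began 81 bases before it. ICAM1 held no consensus match but a 9-base match that began 186 bases before the start, and BIRC3 held consensus matches at 199 and 135 bases before it. NFKB2 held matches at 2 of its 3 annotated starts and none at the most upstream one. The stretch printed for NFKB2 belongs to the middle start, and consensus matches at 176 and 21 bases before the most downstream start are not printed. A match is a stretch of letters and was not shown to be bound in these cells.

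**Figure D1:**
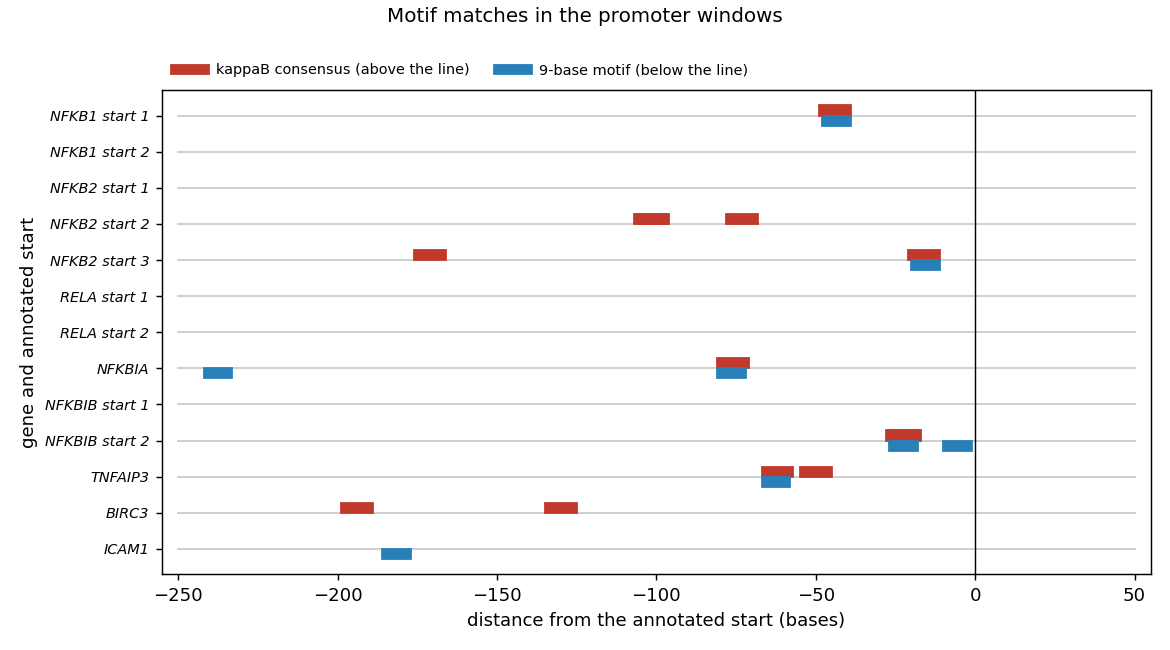
Positions of kappaB consensus matches (red) and 9-base matches (blue) in 13 promoter windows of 8 NF-kB genes, as distance in bases from the annotated start; each line is 1 window. Matches lie in 8 windows, and both windows of RELA are empty.

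The series holds 1 library per group, so no value has a replicate error, no difference was tested, and each is a difference between these libraries. Values are RPKM, a read number divided by transcript length and by the size of the library. Counts were not at hand, and the sequencing depth is therefore unknown. Differences are given as log2 changes, log2((knockdown RPKM + 1) / (wild type RPKM + 1)), which understate the change of low genes. They are set beside those of the 12158 named genes whose mean over both libraries reached 1 RPKM (the compared genes), which include all 10 NF-kB genes. Over these genes the median log2 change was 0.01 and the central 95% ran from -0.64 to 0.51. MYOCD itself was near the floor of the table, at 0.400 RPKM in the knockdown and 0.881 RPKM in the wild type library, or 45.5% of the wild type level. Its mean of 0.641 RPKM leaves it out of the compared genes. Every line of the table reached at least 0.652 RPKM in 1 or both libraries, and MYOCD did so only in the wild type library. The keratins KRT8 and KRT18, which mark epithelial cells, were at 1521 and 1683 RPKM in the knockdown library. In the wild type library they were at 1545 and 1776 RPKM. They were the highest of 8 lung epithelial markers, of which 6 had a line. In the knockdown and wild type libraries CDH1 had 22.5 and 23.8 RPKM, and KRT19 had 7.69 and 7.70 RPKM. In the same order, EPCAM had 2.15 and 2.24 RPKM, and NAPSA had 0.771 and 1.27 RPKM. No endothelial marker of 4 had a line, and the surfactant gene SFTPB and the lung factor NKX2-1 had none either.

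ICAM1 and TNFAIP3 were lower in the knockdown library, NFKB1 and BIRC3 were moderately higher, and the other 6 genes differed little. A 1.5-fold difference on the log2 scale with the pseudocount was used as a size rule. By this rule 2 of the 10 genes were lower and 0 higher, while of all compared genes 3.20% were lower and 1.65% were higher. Both lower genes had a mean of 1 to 5 RPKM, where 6.22% of compared genes were lower. The 10 genes were chosen with earlier results of these data known. By a 2-fold rule on the same scale 0 of the 10 genes differed, against 0.724% of all genes lower and 0.650% higher. This count depends on the pseudocount: with one of 0.1 RPKM, ICAM1 was past 2-fold at -1.27, as were 189 of all compared genes on the lower side. The median log2 change of the 10 genes was -0.04, and 6 of them lay within 0.2 of 0. In RNA from a whole culture, fewer cells that express a gene and less of its RNA per cell cannot be told apart.

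**Figure D2:**
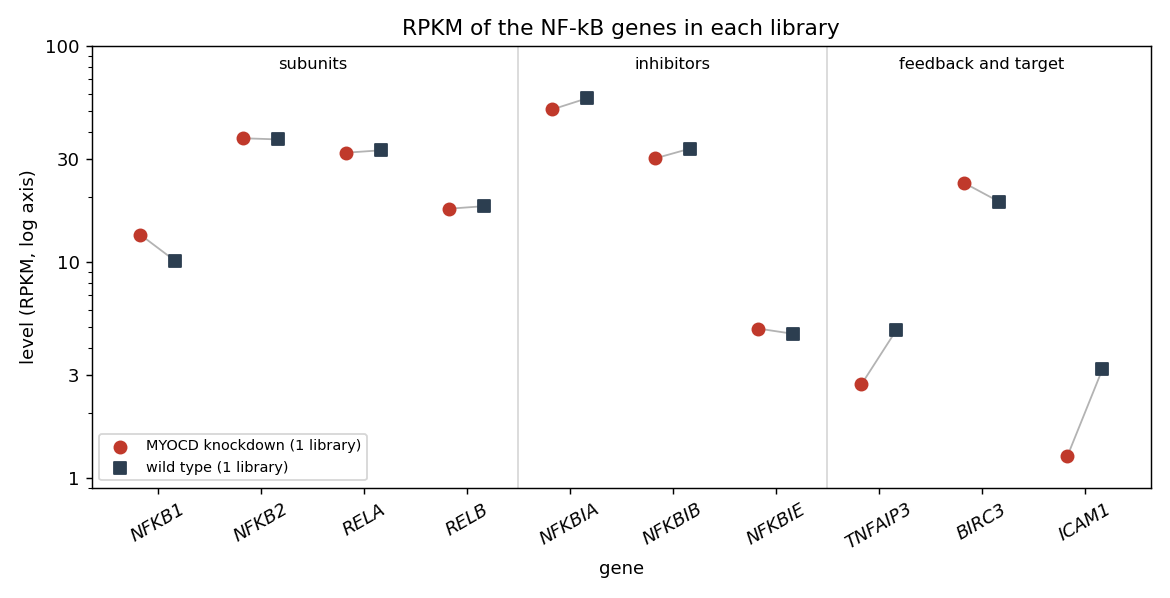
RPKM (log axis) of the 10 NF-kB genes in the MYOCD knockdown library (red circles) and the wild type library (dark squares), 1 library each, joined by a line per gene. ICAM1 and TNFAIP3 have the steepest lines, and NFKBIA is the highest gene in both libraries.

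The subunit genes had similar levels in both libraries apart from NFKB1. NFKB1, whose product p105 is trimmed to p50, is annotated at chr4:102501329-102617302 on the plus strand (GENCODE release 29, GRCh38, as for the positions below). It had 13.4 RPKM in the knockdown library and 10.1 RPKM in the wild type library, or 132% of the wild type level, with a log2 change of 0.37. This was the highest change of the 10 genes, and 5.49% of all compared genes had a higher one. Among 5022 compared genes with a mean of 5 to 20 RPKM, where NFKB1 lies, the central 95% of log2 changes ran from -0.59 to 0.48, and NFKB1 was within it.

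RELA, the p65 subunit that carries the main activation domain of the canonical dimer, had 32.0 RPKM in the knockdown library and 32.9 RPKM in the wild type library. RELB, its counterpart in the non-canonical branch, had 17.6 RPKM in the knockdown library and 18.1 RPKM in the wild type library. The log2 change of each was -0.04, and RELA over RELB was 1.82 in the knockdown library and 1.81 in the wild type library. NFKB2, which encodes p100, an inhibitor until it is cut to p52, had 37.4 RPKM in the knockdown library and 36.9 RPKM in the wild type library, a log2 change of 0.02. Between the partners of the canonical dimer, NFKB1 over RELA was 0.417 in the knockdown library and 0.307 in the wild type library, a log2 difference of 0.44. Between those of the non-canonical dimer, NFKB2 over RELB was 2.12 in the knockdown library and 2.04 in the wild type library, a log2 difference of 0.06. NFKB2 over NFKB1 was 2.80 in the knockdown library and 3.66 in the wild type library. The summed level of the 4 subunit genes was 100.4 RPKM in the knockdown library and 98.0 RPKM in the wild type library.

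Among the inhibitors, NFKBIA and NFKBIB were slightly lower in the knockdown library and NFKBIE was nearly level. NFKBIA encodes IkB-alpha, the inhibitor that NF-kB itself induces most readily, and lies at chr14:35401511-35404749 on the minus strand. It had 50.8 RPKM in the knockdown library and 57.3 RPKM in the wild type library, a log2 change of -0.17, and was the highest of the 10 genes in both. NFKBIB, the gene of IkB-beta, had 30.2 RPKM in the knockdown library and 33.5 RPKM in the wild type library, a log2 change of -0.15. Among all compared genes, 22.8% had a lower change than NFKBIA and 25.3% a lower one than NFKBIB.

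NFKBIE, the gene of IkB-epsilon, was the least abundant inhibitor, with 4.91 RPKM in the knockdown library and 4.64 RPKM in the wild type library, a log2 change of 0.07. NFKBIA stood at 10.4 times the level of NFKBIE in the knockdown library and at 12.3 times in the wild type library. Summed over the 3 inhibitor genes the level was 85.9 RPKM in the knockdown library and 95.4 RPKM in the wild type library, or 90.0% of the wild type sum. The ratio of summed inhibitor to summed subunit RNA was 0.856 in the knockdown library and 0.974 in the wild type library, a log2 difference of -0.19 with no replicate to set its error. The start of NFKBIB overlaps that of SIRT2 on the opposite strand, and use of strand in the counting is not stated, so reads from the overlap cannot be assigned.

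The feedback and target genes did not move as a group: TNFAIP3 and ICAM1 were lower and BIRC3 was higher. ICAM1, an adhesion receptor for leukocyte integrins and a classical NF-kB target, lies at chr19:10270835-10286615 on the plus strand. It had 1.26 RPKM in the knockdown library and 3.18 RPKM in the wild type library, or 39.6% of the wild type level. Its log2 change was -0.89 with the pseudocount and -1.34 as a plain ratio. This was the lowest change of the 10 genes, and 1.02% of all compared genes had a lower one.

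TNFAIP3 encodes A20, an enzyme that edits ubiquitin chains on signalling proteins and ends the NF-kB response, and lies at chr6:137867188-137883312 on the plus strand. It had 2.71 RPKM in the knockdown library and 4.84 RPKM in the wild type library, or 55.9% of the wild type level, with a log2 change of -0.66. Of all compared genes 2.39% had a lower change. ICAM1 and TNFAIP3 were also the least abundant of the 10 genes in the knockdown library, and low genes differ more widely. Among 2862 compared genes with a mean of 1 to 5 RPKM, where both lie, the central 95% of log2 changes ran from -0.78 to 0.56 and 6.22% were at least 1.5-fold lower. TNFAIP3 was inside that range and ICAM1 was below it. Neither passed the 1.5-fold rule with a pseudocount of 5, where the log2 changes were -0.39 for ICAM1 and -0.35 for TNFAIP3.

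BIRC3 encodes cIAP2, a ubiquitin ligase at the tumour necrosis factor receptor and an inhibitor of cell death, and lies at chr11:102317450-102339403 on the plus strand. It had 23.2 RPKM in the knockdown library and 19.0 RPKM in the wild type library, or 122% of the wild type level, with a log2 change of 0.28. Of all compared genes 11.1% had a higher change. BIRC3 stood at 8.57 times the level of TNFAIP3 in the knockdown library and at 3.92 times in the wild type library, and both genes carry kappaB matches in the window read. In ICAM1 and TNFAIP3, antisense genes are annotated on the opposite strand, and BIRC3 overlaps no other annotated gene. None of the antisense genes has a line under its annotated name, but lines without a gene name were not searched. As for NFKBIB, reads from these overlaps cannot be assigned.

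**Figure D3:**
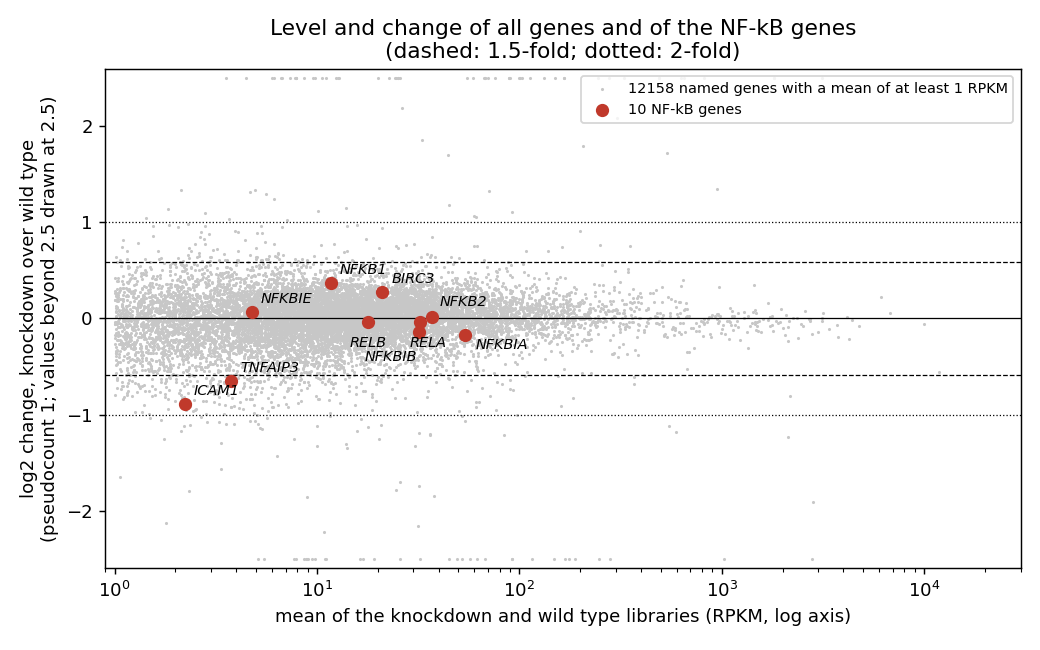
Mean RPKM of the libraries (log axis) against the log2 change, knockdown over wild type, for 12158 genes (grey) and the 10 NF-kB genes (red); dashed lines mark 1.5-fold and dotted lines 2-fold. ICAM1 (-0.89) and TNFAIP3 (-0.66) lie below the lower dashed line and at the low end of the levels.

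The order of levels was nearly the same in both libraries. In the knockdown library it ran NFKBIA, NFKB2, RELA, NFKBIB, BIRC3, RELB, NFKB1, NFKBIE, TNFAIP3 and ICAM1. In the wild type library NFKBIB stood above RELA, and TNFAIP3 above NFKBIE, with all other ranks equal. The levels of RELA and NFKBIB were within 2 RPKM of each other in each library, and with 1 library per group no spread is at hand to tell neighbours apart. In the wild type library 15.2% of all compared genes were lower than ICAM1, and in the knockdown library 3.37% were.

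Genes with a kappaB match lay on both sides of 0. The 7 genes with a match had log2 changes from -0.89 for ICAM1 to 0.37 for NFKB1, with a median of -0.15, and RELA, without one, was at -0.04. Over all compared genes in the promoter table, the 1108 with a match had a median log2 change of 0.00035 and 3.61% were at least 1.5-fold lower, while the 7121 without one had a median of 0.02 and 2.19% were at least 1.5-fold lower. This difference was not tested.

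The 3′ ends of the messages differ too. The pentamer ATTTA is the core of AU-rich elements, which shorten the life of many inflammatory messages, and 74.2% of 10171 compared genes with an annotated 3′ UTR hold it. In the longest annotated 3′ UTR, BIRC3 held 12 copies in 2301 bases, TNFAIP3 held 4 in 3156, NFKB1 held 3 in 708, NFKBIA held 3 in 502, ICAM1 held 2 in 1328 and NFKB2 held 1 in 153. RELA, RELB, NFKBIB and NFKBIE held 0. The genes with the pentamer included the highest and the lowest changes, and also NFKB2 at 0.02, while the 4 without it lay between -0.15 and 0.07. Over all compared genes with an annotated 3′ UTR, 2.16% of those with the pentamer were at least 1.5-fold lower. Of those without it 4.34% were. Neither difference was tested.

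The word AATATGC occurs in the 3′ UTRs of 2 of the 10 genes, ICAM1 (bases 909 to 915 of the UTR) and TNFAIP3 (bases 2396 to 2402), which are the genes that were at least 1.5-fold lower. It occurs in 11.7% of compared genes. The word had been picked from these same libraries as frequent in lower genes, with these genes among them, so its presence here supports nothing. Of 2545 mature human microRNAs in the RefSeq table, 0 have its complement at bases 2 to 8, the seed.

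Beyond the 10 genes, lists of NF-kB pathway genes were described by their counts. Over all lists 128 further genes were named, of which 99 were compared, with a median log2 change of -0.01. Of these 8 were at least 1.5-fold lower, or 8.08%, and 1 was at least 1.5-fold higher, where all compared genes had 3.20% and 1.65%. The list of induced cytokine, adhesion and matrix genes holds 6 of the 8 lower genes. It was set when the lower levels of several of its genes were already known, so the 8.08% was not drawn from genes chosen apart from these data. Genes named below are the 2 highest and 2 lowest of each list, unless stated otherwise.

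Receptors and ligands were largely not among the values used here: 10 of 24 were compared, with a median log2 change of -0.03, and 1 was at least 1.5-fold lower. LTB, the lymphotoxin beta ligand, had 0.615 RPKM in the knockdown library and 1.83 RPKM in the wild type library. IL1RAP, a co-receptor of interleukin 1, had 2.74 RPKM in the knockdown library and 3.84 RPKM in the wild type library. The receptor for the cytokine TWEAK, TNFRSF12A, had 158 RPKM in the knockdown library, against 113 RPKM in the wild type library, and the TRAIL receptor TNFRSF10A had 20.3 RPKM in the knockdown library and 14.0 RPKM in the wild type library. None of these passed 1.5-fold but LTB. With a mean of at least 5 RPKM, LTB, IL1RAP and other genes with negative changes were left out. The median of the list then turned to 0.27 and 0 genes were lower. With a pseudocount of 5 LTB did not pass either. The genes of tumour necrosis factor and of interleukin 1 alpha and beta had no line of their own.

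All 33 adaptors and kinases were compared, with a median log2 change of 0.07. It became -0.10 with equal summed RPKM (over all loci, here and below), and 1 gene was at least 1.5-fold lower. That gene was MAP3K7, the kinase TAK1 that switches on the IkB kinases, with 9.36 RPKM in the knockdown library and 14.6 RPKM in the wild type library. With a pseudocount of 5 it did not pass. TICAM1, the adaptor of Toll-like receptor 3, had 3.92 RPKM in the knockdown library and 5.41 RPKM in the wild type library. MAP3K14, the kinase NIK of the non-canonical branch, had 28.7 RPKM in the knockdown library and 19.7 RPKM in the wild type library, a log2 change of 0.53. BCL10, an adaptor that links receptors to the IkB kinases, had 6.92 RPKM in the knockdown library and 4.96 RPKM in the wild type library.

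Of 26 genes of the ubiquitin machinery 22 were compared, with a median of 0.03 that became -0.16 with equal summed RPKM, and 0 passed 1.5-fold in either direction. BIRC2, which lies beside BIRC3 and encodes its close relative cIAP1, had 22.6 RPKM in the knockdown library and 18.6 RPKM in the wild type library, a log2 change of 0.27, close to the 0.28 of BIRC3. FAM105B (now OTULIN), which removes linear ubiquitin chains, had 6.82 RPKM in the knockdown library and 5.75 RPKM in the wild type library. UBE2N, the enzyme that builds the ubiquitin chains needed to activate TAK1, had 38.1 RPKM in the knockdown library and 49.0 RPKM in the wild type library. FBXW11, a substrate receptor of the ligase that marks IkB for breakdown, had 26.2 RPKM in the knockdown library and 31.2 RPKM in the wild type library.

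Of 6 other family members 5 were compared, with a median of -0.16, and 0 passed 1.5-fold, although 1 was lower by this rule with equal summed RPKM. BCL3, an unusual IkB protein that works in the nucleus with p50 and p52, had 50.8 RPKM in the knockdown library and 74.6 RPKM in the wild type library, a log2 change of -0.55. NFKBID, another nuclear IkB, had 3.90 RPKM in the knockdown library and 4.81 RPKM in the wild type library. REL, the c-Rel subunit, had 3.95 RPKM in the knockdown library and 4.36 RPKM in the wild type library, below all 4 subunit genes above. COMMD1, which promotes removal of RELA, had 29.6 RPKM in the knockdown library and 28.9 RPKM in the wild type library.

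Target genes gave the widest range. Of 19 induced survival and feedback genes 17 were compared, with a median of -0.04, and 1 was at least 1.5-fold lower, which became 0 with a pseudocount of 5 and 2 with equal summed RPKM. That gene was IER3, an early stress gene, with 84.9 RPKM in the knockdown library and 129 RPKM in the wild type library, while BCL2A1, a survival protein, had 6.25 RPKM in the knockdown library and 4.05 RPKM in the wild type library. Of 36 induced cytokine, adhesion and matrix genes 23 were compared, with a median of -0.22. Of these 6 were at least 1.5-fold lower, or 26.1%, and 1 was higher, in a list set when the lower levels of several of its genes were already known. The count of 6 lower genes became 3 with a pseudocount of 5 and 9 with equal summed RPKM. The 6 were CCL20, PTGS2, CXCL3, CCL5, CXCL1 and LTB, and CXCL3, CCL5 and CXCL1 are named after their values were seen.

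CCL20 had 3.30 RPKM in the knockdown library, against 14.6 RPKM in the wild type library, and PTGS2, the inducible cyclooxygenase, had 20.8 RPKM in the knockdown library and 42.0 RPKM in the wild type library. PLAU, the protease urokinase, had 123 RPKM in the knockdown library and 87.5 RPKM in the wild type library. ICAM5 and ICAM3, which lie near ICAM1, had log2 changes of -0.58 and -0.34 and were also named after their values were seen. The targets held both lower genes, as ICAM1 and TNFAIP3 were, and higher ones, as BIRC3 was.

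**Figure D4:**
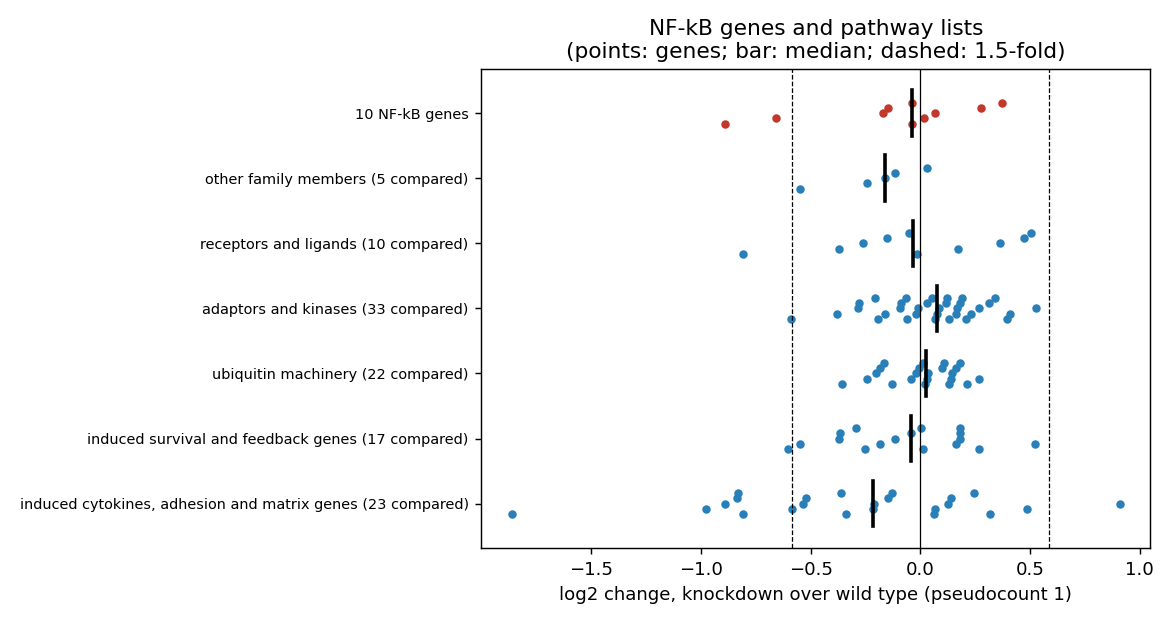
Log2 change, knockdown over wild type, of each compared gene (points) in the 10 NF-kB genes and 6 pathway lists; black bars are medians and dashed lines mark 1.5-fold. Ubiquitin machinery and other family members stay inside the dashed lines, and CCL20 (-1.86) is the lowest of the induced cytokine, adhesion and matrix genes.

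The direction of some small changes depended on whether the scaling took in lines without a gene name. Equal sums over named genes alone, a log2 shift of -0.007, left NFKB2 at 0.01 and NFKBIE at 0.06. When the libraries were scaled to equal summed RPKM over all loci, the median of all compared genes moved to -0.17, and 781 genes were at least 1.5-fold lower and 108 higher, against 389 lower and 201 higher as deposited. NFKB2 (-0.18) and NFKBIE (-0.10) then turned negative, while NFKB1 (0.19) and BIRC3 (0.09) stayed above 0, and ICAM1 (-0.996) and TNFAIP3 (-0.80) stayed below the 1.5-fold limit.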

How the data were processed

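The deposited table gives RPKM per locus for each library, computed by the authors. Per the submitters' processing notes, TopHat2 2.0.10 and Cufflinks 2.2.1 are named together with builds listed as BDGP5 and GRCh38.p12, without roles. Annotation, filters and strandedness are not stated. Of 2212 loci detected in both libraries and below 2 RPKM in each, at most 29 had log2 ratios in any one window of 0.01. No expected number was set beside this, so whether single reads make steps in the values was not tested.

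Lines without a gene name (1909 of 14952) were left out, names on several lines (102) were summed, and a mean of 1 RPKM or more was required. With 1 library per group no test was run, and log2 changes used a pseudocount of 1 RPKM. Older symbols were matched through RefSeq and gene name tables. Python 3.11.15, numpy 2.4.6 and pandas 2.3.3 were used.

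The members and lists were chosen with earlier results of these data known. Named genes are MYOCD, the 10 genes, cell type markers, and the 2 highest and 2 lowest compared genes of each pathway list. A gene that this rule takes is not reported here. Of the leukocyte markers 2 of 5 had a line, summing to 4.10 RPKM in the knockdown and 3.71 RPKM in the wild type library. Of the fibroblast markers 1 of 5 had a line, with 2.41 RPKM in the knockdown and 2.76 RPKM in the wild type library.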

Additional observations from a re-analysis of the deposited data

How the results depend on the processing

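No paired analysis was possible because each group has 1 library, and no spread between replicates could be set. Across 9 alternatives, ICAM1 and TNFAIP3 stayed below 0, and NFKB1 and BIRC3 above 0, wherever they were compared. ICAM1 ranged from -1.27 (pseudocount 0.1) to -0.39 (pseudocount 5) and TNFAIP3 from -0.82 to -0.35 under the same settings. The count of 2 NF-kB genes past 1.5-fold was 0 with a pseudocount of 5. It was also 0 with a mean of at least 5 RPKM, where ICAM1, TNFAIP3 and NFKBIE were left out. Among all genes, 389 were 1.5-fold lower and 201 higher, and 88 were 2-fold lower and 79 higher. A pseudocount of 0.1 gave 615 lower and 345 higher at 1.5-fold and 189 lower at 2-fold, and one of 5 gave 125, 97 and 53. A mean of at least 5 RPKM gave 211 genes 1.5-fold lower, and a median of 0.27 for receptors and ligands, against -0.03. Protein-coding genes alone gave 106 that were 1.5-fold higher, 43 that were 2-fold lower and 17 that were 2-fold higher. Equal sums over all loci, a factor of -0.20 on the log2 scale, gave 781 lower and 108 higher at 1.5-fold and 140 lower at 2-fold. With equal sums the median of the 10 genes was -0.23. The list medians were then -0.33 for other family members, -0.23 for receptors and ligands, -0.10 for adaptors and kinases, -0.16 for ubiquitin machinery, -0.24 for survival and feedback genes and -0.41 for cytokine, adhesion and matrix genes. The causes were not tested beyond what each setting changes by construction. With no filter, equal sums over named genes, a median ratio of 0 or 1 line per gene, no value moved by more than 0.15 or 1.5 times.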
